A study of Oryza sativa with 9 samples.

Results

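The enzymes described here are 7 rice loci of sucrose, starch and central carbon metabolism: a sucrose synthase, a granule-bound starch synthase, a beta-amylase, a fructose-bisphosphate aldolase, a phosphoglycerate kinase, an enolase and a malate dehydrogenase. Their transcripts were selected on the measured values themselves, because a transcript is present in the authors' deposited tables only when its probability of differential expression is at least 0.8. The 7 loci contributed 10 transcripts, of 832 transcripts and 727 loci in the 3 authors' deposited tables. The counts of listed transcripts and the differences below are therefore a description of listed transcripts, and no test is given for them.

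The spikelet is the floral unit of rice (Oryza sativa), with green hulls around the anthers and the pistil. Its polyA RNA was sequenced from BC14F2 plants, selfed offspring of a long series of backcrosses, in 9 samples. The plants were heterozygous f5-i/j (3 samples), homozygous f5-i/i (3 samples) or homozygous f5-j/j (3 samples) at f5, a locus of male sterility in hybrids between rice subspecies, and all were planted in rows in normal cultivation, with no treatment named. The labels give neither the age of the plants nor the stage of the spikelets, and they do not say whether the 3 samples of a genotype were separate plants or pools.

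Sucrose made in green tissue is carried to growing flowers, where sucrose synthase splits it into UDP-glucose and fructose. The sugars are stored as starch, rebuilt into walls or passed through glycolysis, in which aldolase, phosphoglycerate kinase and enolase act in this order. Malate dehydrogenase converts malate and oxaloacetate into each other. In rice anthers, sugar supply and starch filling of pollen are known to matter for male fertility.

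All levels below are the authors' mean abundance of a genotype, in a unit that is not stated. Values of single samples were not analysed here. The means come without an error and the read depth is unknown, so no difference could be set against the spread between samples. Every deposited mean, multiplied by 3, was a whole multiple of 0.01 (100% of 2502 means, within a tolerance of 0.001 multiples), as the arithmetic mean of 3 values with 2 decimals gives. If no sample value lies below 0.01, a mean of 0.01 therefore places all 3 samples of that genotype at the lowest value. A mean above it does not show whether 1 sample or all 3 carried the transcript. No fold is given against a mean of 0.01, which is called the lowest value. Of the 10 transcripts, 8 had a mean for all 3 genotypes, and 2 had a mean for only 2 genotypes, because a mean is given only for the genotypes of a table that lists the transcript.

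**Figure D1:**
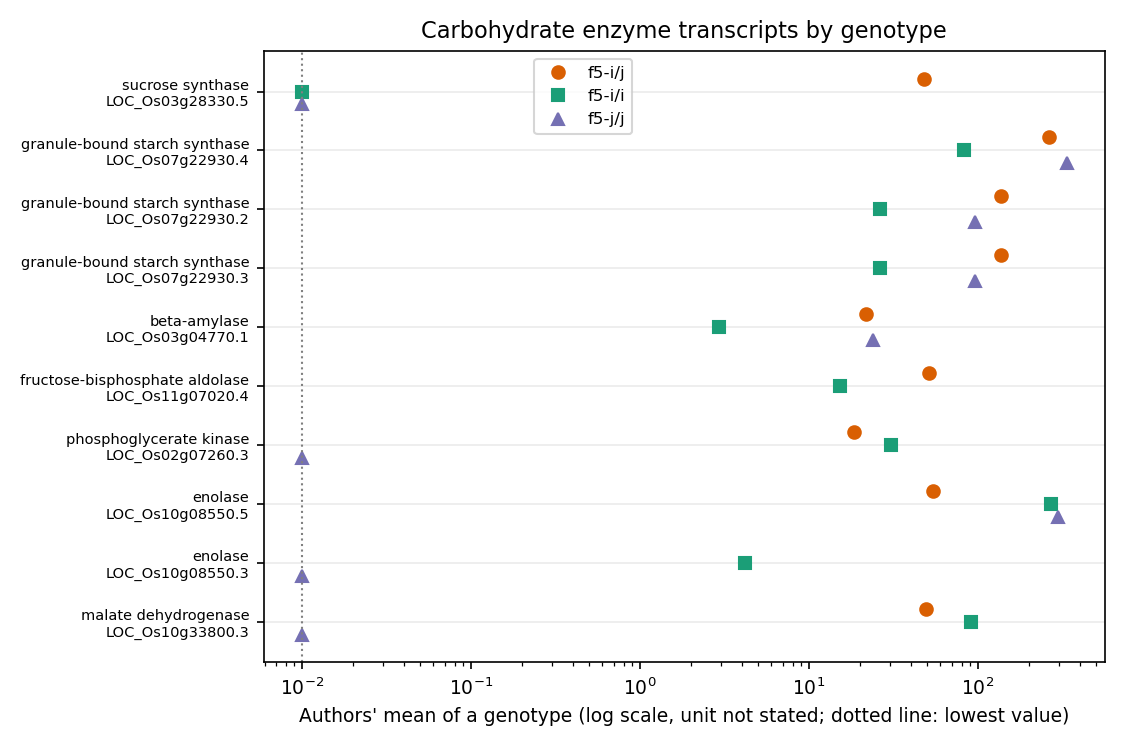
Authors' mean of each genotype (x axis, log scale, unit not stated) for the 10 transcripts of the 7 enzymes (rows). Circles stand for f5-i/j plants, squares for f5-i/i plants and triangles for f5-j/j plants; a missing symbol is a mean not held in the tables, and the dotted line is the lowest value of 0.01. Starch synthase and beta-amylase have the square to the left of both other symbols, and enolase LOC_Os10g08550.5 has the circle to the left.

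Sucrose synthase (LOC_Os03g28330.5, chromosome 3 by its identifier) had a mean above the lowest value in the heterozygote only. The mean given by the authors was 47.9 in f5-i/j plants, 0.01 in f5-i/i plants and 0.01 in f5-j/j plants. Both homozygotes stood at the lowest value, and the heterozygote mean could come from a single sample of up to 144 or from all 3. The transcript had a probability of 0.995 in the authors' deposited table for f5-i/j plants against f5-i/i plants and of 0.995 in that for f5-i/j plants against f5-j/j plants, which ranked 9 of 480 and 4 of 350 listed transcripts. In all, 33 transcripts of the 3 authors' deposited tables had this pattern, with both homozygotes at 0.01 and a mean above it in f5-i/j plants. One of them, LOC_Os08g38810.1, belongs to a list of tapetum and anther loci searched here, with a mean of 21.4 in f5-i/j plants and 0.01 in both homozygotes. Its deposited description, a distant match to a proteasome activator, does not name an anther role. The other listed locus of that list, LOC_Os11g37280.1, had another order, with 34.05 in f5-i/j plants, 33.8 in f5-i/i plants and 0.413 in f5-j/j plants. Whether the content of anther tissue differed between the samples was not tested. In bulk tissue, fewer cells of a type and less RNA per cell cannot be told apart. No other transcript of the sucrose synthase locus LOC_Os03g28330 was listed.

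Granule-bound starch synthase and beta-amylase had lower means in f5-i/i plants than in both other genotypes. Of all 832 transcripts, 103 (12.4%, these included) were listed as lower in f5-i/i plants than in both others, and not listed for f5-i/j plants against f5-j/j plants. The synthase makes the unbranched starch chains of amylose. The locus listed here, LOC_Os07g22930 on chromosome 7, is not the Waxy locus, which provides this activity in the rice endosperm and was not listed. Its transcript LOC_Os07g22930.4 had an authors' mean of 264 in f5-i/j plants, 82.8 in f5-i/i plants and 334 in f5-j/j plants. The transcripts LOC_Os07g22930.2 and LOC_Os07g22930.3 had 137 in f5-i/j plants, 26.2 in f5-i/i plants and 95.8 in f5-j/j plants each. These 2 transcripts share the same means and the same coding length of 1827 bases, so their values are not independent of each other. For LOC_Os07g22930.4, f5-i/j plants were 3.20-fold higher than f5-i/i plants, and f5-i/i plants were 4.04-fold lower than f5-j/j plants. For LOC_Os07g22930.2 the same differences were 5.24-fold and 3.66-fold.

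The listed starch synthase transcripts differed in how the heterozygote stood to f5-j/j plants. LOC_Os07g22930.4 had 79.0% of the f5-j/j mean in f5-i/j plants, and LOC_Os07g22930.2 had 143% of it. Neither difference was listed by the authors. The mean of LOC_Os07g22930.4 divided by that of LOC_Os07g22930.2 was 1.93 in f5-i/j plants, 3.16 in f5-i/i plants and 3.49 in f5-j/j plants, and the ratio was lowest in the heterozygote. The coding length was 1491 bases for LOC_Os07g22930.4. Added over the 3 transcripts, the means came to 539 in f5-i/j plants, 135 in f5-i/i plants and 526 in f5-j/j plants. The sum in f5-i/j plants was 3.99-fold that of f5-i/i plants and 1.02-fold that of f5-j/j plants. With the identical transcripts counted once, a choice made after the values were seen, the sums were 401 in f5-i/j plants, 109 in f5-i/i plants and 430.3 in f5-j/j plants. The heterozygote was then 3.69-fold f5-i/i plants and 0.933-fold f5-j/j plants, and with the most abundant transcript alone it had 79.0% of the f5-j/j mean. The sums thus give no settled direction between the heterozygote and f5-j/j plants. Such a sum assumes that the authors' unit adds up over the transcripts of a locus.

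Beta-amylase, which releases maltose from starch, was listed with the single transcript LOC_Os03g04770.1 on chromosome 3. The mean given by the authors was 21.7 in f5-i/j plants, 2.95 in f5-i/i plants and 24.0 in f5-j/j plants. The heterozygote was 7.36-fold higher than f5-i/i plants, and f5-i/i plants were 8.13-fold lower than f5-j/j plants. The heterozygote and f5-j/j plants lay close to each other, at 90.6% of the f5-j/j mean in f5-i/j plants, a difference that was not listed. The protein was annotated by the authors to a membrane-bounded organelle within the cell.

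Fructose-bisphosphate aldolase, which splits fructose bisphosphate into triose phosphates in glycolysis and joins them in the reverse direction, differed in the same direction between f5-i/j plants and f5-i/i plants. Its transcript LOC_Os11g07020.4 on chromosome 11 had an authors' mean of 51.4 in f5-i/j plants and 15.3 in f5-i/i plants, a 3.37-fold difference. It was in no table with f5-j/j plants, so that mean was not analysed here. With a probability of 0.801 it lay just inside the limit of 0.8 of the authors' deposited table. The coding length of this model was 696 bases. Like beta-amylase, the protein was annotated by the authors to a membrane-bounded organelle within the cell. Whether this locus acts in glycolysis was not tested.

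Most listed transcripts of green tissue were higher in f5-i/j plants than in f5-i/i plants, as were those of starch synthase, beta-amylase and aldolase. Transcripts described by chlorophyll, photosystem or light-harvesting numbered 24 in the authors' deposited tables. For f5-i/j plants against f5-i/i plants, 23 of the 24 listed were higher and 1 was lower, against 53.3% higher over all listed transcripts. Their summed means were 3841 in f5-i/j plants and 936 in f5-i/i plants. For f5-i/i plants against f5-j/j plants, 0 of 8 listed were higher and 8 were lower, against 45.1% higher over all listed transcripts. Their summed means were 236 in f5-i/i plants and 974 in f5-j/j plants. For f5-i/j plants against f5-j/j plants, 4 were higher and 1 was lower, against 44.6% higher over all listed transcripts. Their summed means were 511 in f5-i/j plants and 187 in f5-j/j plants. The 12 green tissue transcripts with a mean in all genotypes summed to 1485 in f5-i/j plants, 280 in f5-i/i plants and 1041 in f5-j/j plants. All these sums hold only transcripts that passed the authors' filter, which bears on the size of their differences. Starch synthase and beta-amylase were not listed for f5-i/j plants against f5-j/j plants, and aldolase had no f5-j/j mean here. The part of green tissue in the starch and aldolase differences was not tested.

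**Figure D2:**
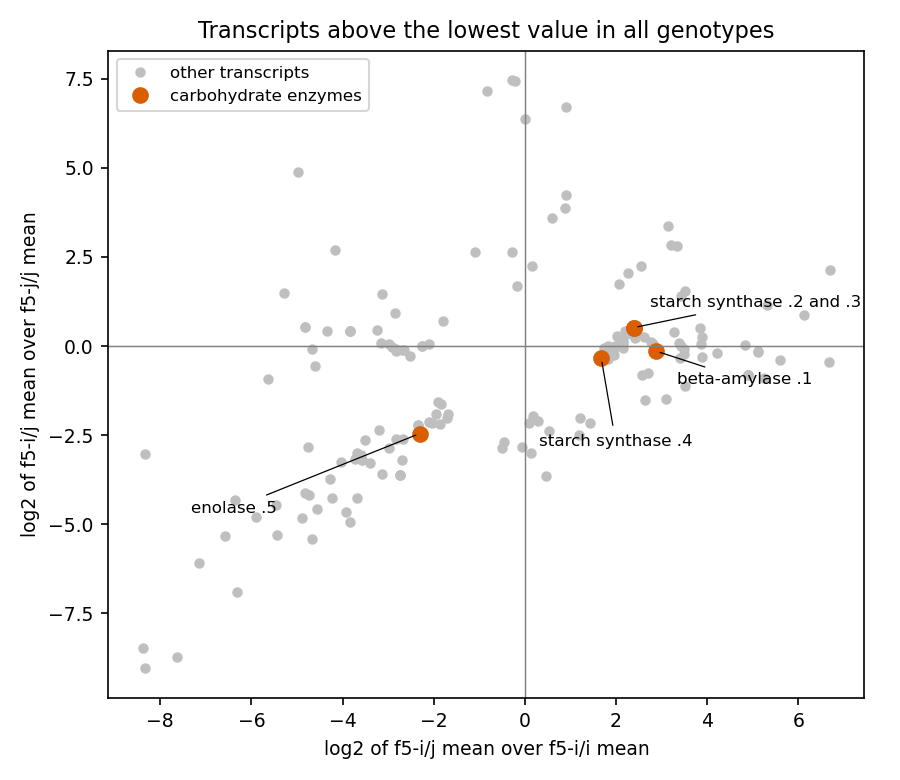
Log2 ratio of the authors' means of f5-i/j over f5-i/i plants (x axis) and of f5-i/j over f5-j/j plants (y axis), for transcripts above the lowest value in all 3 genotypes. Each point is a transcript, and both axes share the f5-i/j mean, so their joint position is no evidence of a relation; the empty area around the origin follows from the filter of the tables. Starch synthase and beta-amylase lie near 0 on the y axis and to the right on the x axis, and enolase lies below 0 on both.

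An enolase transcript, of the enzyme that forms phosphoenolpyruvate late in glycolysis, was lower in the heterozygote than in both homozygotes. LOC_Os10g08550.5 on chromosome 10 had an authors' mean of 54.6 in f5-i/j plants, 270.2 in f5-i/i plants and 299.6 in f5-j/j plants. The heterozygote was 4.95-fold lower than f5-i/i plants and 5.49-fold lower than f5-j/j plants. The homozygotes lay close together, with 90.2% of the f5-j/j mean in f5-i/i plants, and that difference was not listed. The probability was 0.823 against f5-i/i plants and 0.833 against f5-j/j plants in the authors' deposited tables, ranks 307 of 480 and 218 of 350 listed transcripts. Both comparisons use the same f5-i/j mean. Of 145 transcripts listed for both, 96 were lower and 43 were higher in f5-i/j plants in both.

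A further enolase transcript of the same locus was listed only between the homozygotes. LOC_Os10g08550.3 had an authors' mean of 4.16 in f5-i/i plants and 0.01 in f5-j/j plants, and its f5-i/j mean was not analysed here. It thus cannot be set against the low heterozygote mean of LOC_Os10g08550.5. In f5-i/i plants its mean was 1.54% of that of LOC_Os10g08550.5. Its coding length was 1437 bases, 165 bases longer than that of LOC_Os10g08550.5. Through the gene number in the deposited annotation, this locus was the only member matched to the RefSeq gene table (assembly ASM3414082v1), where its synonyms are Eno1 and OSE1 and its chromosome is 10.

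Phosphoglycerate kinase and malate dehydrogenase shared a pattern in which f5-j/j stood at the lowest value. Phosphoglycerate kinase passes a phosphate from bisphosphoglycerate to ADP, the first step of glycolysis that yields ATP. Its transcript LOC_Os02g07260.3 on chromosome 2 had an authors' mean of 18.5 in f5-i/j plants, 30.6 in f5-i/i plants and 0.01 in f5-j/j plants. The malate dehydrogenase transcript LOC_Os10g33800.3 on chromosome 10 had 49.1 in f5-i/j plants, 90.9 in f5-i/i plants and 0.01 in f5-j/j plants. For both transcripts, the heterozygote lay below f5-i/i plants and above f5-j/j plants. The coding length was 1116 bases for the phosphoglycerate kinase transcript and 660 bases for the malate dehydrogenase transcript.

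For these 2 transcripts the heterozygote mean lay nearer to the average of the homozygotes than to either of them. Phosphoglycerate kinase had 60.5% of the f5-i/i mean in f5-i/j plants, and malate dehydrogenase had 54.0%. Set against the average of the 2 homozygote means, f5-i/j plants had 121% for phosphoglycerate kinase and 108% for malate dehydrogenase. Neither transcript was listed for f5-i/j plants against f5-i/i plants. Among the 40 transcripts at 0.01 in f5-j/j plants and above it in both other genotypes, the f5-i/j mean had a median of 78.8% of the f5-i/i mean, with quartiles of 35.4% and 118%. Both enzymes thus lay between the lower quartile and the median of such transcripts. A further 36 transcripts at 0.01 in f5-j/j plants, with a mean above it in f5-i/i plants, were at 0.01 in f5-i/j plants as well. The probabilities of the malate dehydrogenase transcript were 0.999 for f5-i/i plants against f5-j/j plants and 0.995 for f5-i/j plants against f5-j/j plants in the authors' deposited tables, ranks 5 of 421 and 3 of 350. Those of phosphoglycerate kinase were 0.988 and 0.975, ranks 11 and 17.

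**Figure D3:**
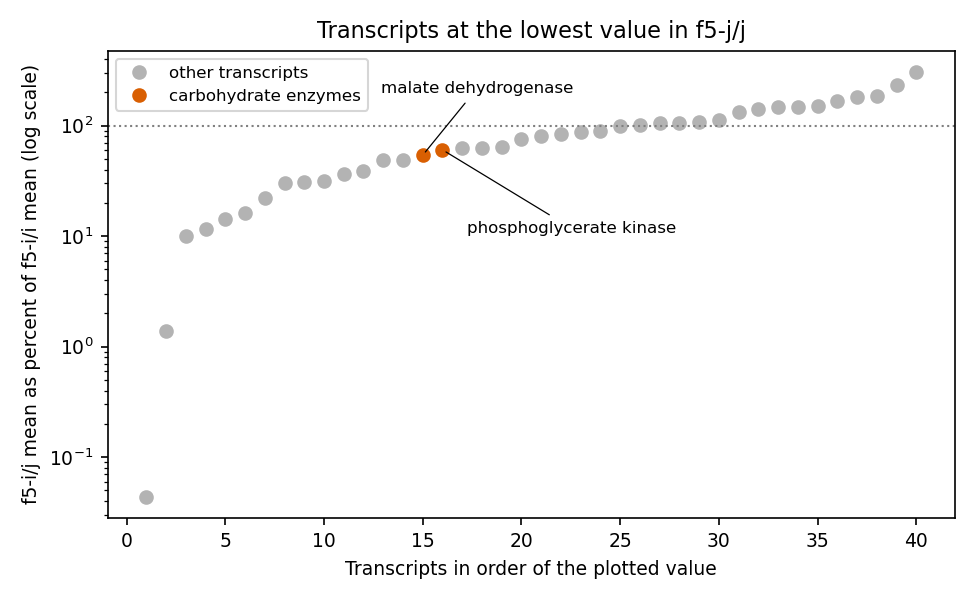
The f5-i/j mean as a percentage of the f5-i/i mean (y axis, log scale) for the 40 transcripts at the lowest value in f5-j/j plants and above it in both other genotypes, in order of that percentage (x axis). Coloured points are malate dehydrogenase at 54.0% and phosphoglycerate kinase at 60.5%; the dotted line marks equal means in f5-i/j plants and f5-i/i plants.

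Counted by comparison, 7 of the 10 transcripts were listed for f5-i/j plants against f5-i/i plants, 6 higher and 1 lower. Of all 832 transcripts, 57.7% were listed for this comparison, and 53.3% of the listed ones were higher in f5-i/j plants. For f5-i/j plants against f5-j/j plants, 4 of the 10 were listed, 3 higher and 1 lower. The corresponding shares over all transcripts were 42.1% listed and 44.6% of the listed ones higher. For f5-i/i plants against f5-j/j plants, 7 of the 10 were listed, 3 higher and 4 lower, against 50.6% listed and 45.1% of the listed ones higher over all transcripts. These counts take the identical starch synthase transcripts as 2, and with 1 of them left out they were 5 higher in the first comparison and 3 lower in the last. These lists chose the 7 loci, so nothing is read from the counts. Above the lowest value, the 6 transcripts listed for f5-i/j plants against f5-i/i plants differed by a median of 5.09-fold, and the 252 such transcripts of the whole table by 7.12-fold. For f5-i/i plants against f5-j/j plants the 4 such transcripts differed by a median of 3.85-fold and all 207 by 7.37-fold.

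The transcript models matter for reading these values. Of the 10 transcripts, 9 carry a model number other than 1, as do 61.8% of all listed transcripts, and beta-amylase is the exception. Model 1 of the other 6 loci was not listed. In the 78 loci with several listed transcripts, 72 of 154 pairs of transcripts had identical means in every genotype. The level of a listed transcript cannot be read as the level of its locus, because unlisted transcripts of that locus have no value here. This limit holds for all 10 transcripts, that of beta-amylase included. Among them are the 4 at the lowest value in 1 or 2 genotypes, those of sucrose synthase, phosphoglycerate kinase, malate dehydrogenase and enolase LOC_Os10g08550.3.

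The wider pathway was counted by words in the deposited descriptions for sucrose, starch, glycolysis, malate and the tricarboxylic acid cycle, and sugar transport. It held 24 loci, the 7 described above and 17 others. For f5-i/j plants against f5-i/i plants, 10 of 14 listed pathway loci were higher and 4 were lower, and 54.2% of all listed loci with a single direction were higher. For f5-i/j plants against f5-j/j plants, 5 were higher and 5 were lower, and 45.6% of all such loci were higher. For f5-i/i plants against f5-j/j plants, 8 were higher and 7 were lower, against 45.3% higher over all. Without the 7 loci the splits were 6 higher and 3 lower, 2 and 4, and 5 and 5 in the same order.

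**Figure D4:**
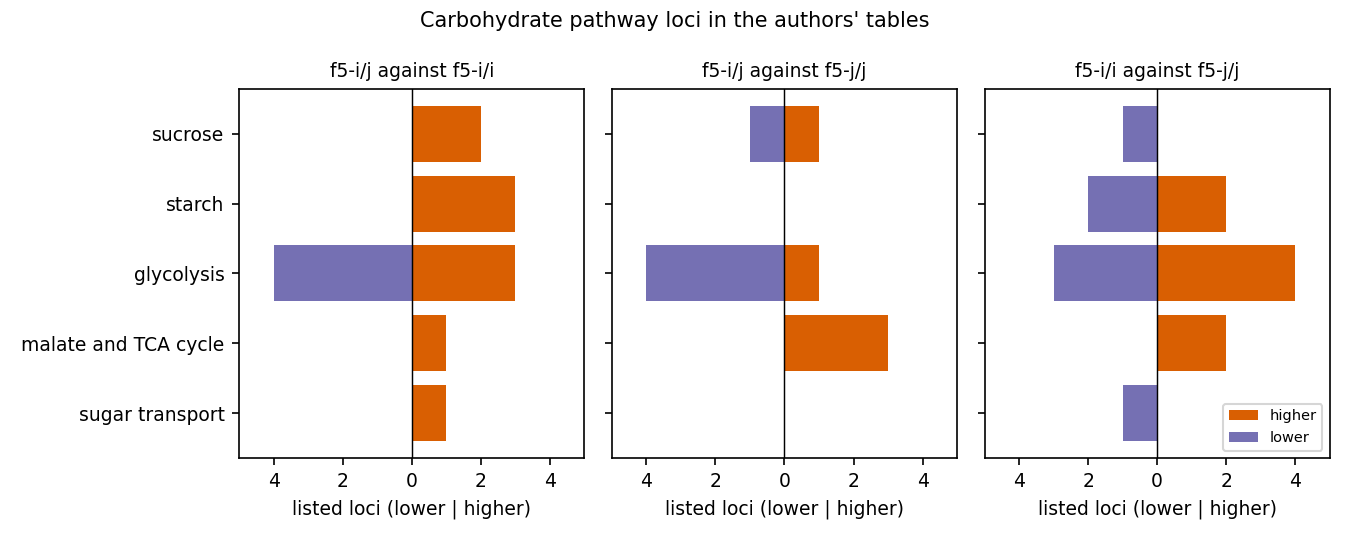
Number of pathway loci (x axis) listed higher (right of 0) or lower (left of 0) in the first-named genotype, for the 5 steps of the wider pathway (rows) and the 3 comparisons (panels). The starch and sucrose bars of f5-i/j plants against f5-i/i plants lie on the right, and the glycolysis bars of each panel extend both ways. Loci were put under glycolysis by words, which also took in pyruvate dehydrogenase and a dehydrogenase of the Calvin cycle type. The aldolase LOC_Os11g07020, annotated to a membrane-bounded organelle, was counted there too, and its part in glycolysis was not tested.

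Among starch loci, 3 were higher and 0 were lower in f5-i/j plants than in f5-i/i plants. Over all listed loci with a single direction, 54.2% were higher. Starch synthase and beta-amylase were themselves chosen from these lists. The third was an alpha-amylase, which cuts starch chains internally. Its transcript LOC_Os01g51754.2 had an authors' mean of 13.2 in f5-i/j plants and 0.73 in f5-i/i plants, an 18.0-fold difference. No starch locus was listed for f5-i/j plants against f5-j/j plants, a comparison that listed 42.1% of all transcripts. Between the homozygotes 2 starch loci were higher and 2 were lower in f5-i/i plants, against 45.3% higher over all loci with a single direction. The higher ones were an isoamylase, which removes branches from starch (LOC_Os08g40930.1, 36.0 in f5-i/i plants and 8.75 in f5-j/j plants), and a starch synthase (LOC_Os05g45720.2, 4.52 in f5-i/i plants and 0.01 in f5-j/j plants). Starch enzymes thus did not share a single direction between the homozygotes.

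A sugar transporter and a dehydrogenase of triose phosphates also had their lowest mean in f5-i/i plants. The sugar transporter LOC_Os02g19820.1, of solute carrier family 50 by description, had an authors' mean of 88.8 in f5-i/j plants, 22.6 in f5-i/i plants and 88.0 in f5-j/j plants. The NADP-dependent glyceraldehyde-3-phosphate dehydrogenase LOC_Os04g38600.3, an enzyme type of the Calvin cycle in chloroplasts, had 44.6 in f5-i/j plants, 8.06 in f5-i/i plants and 34.6 in f5-j/j plants. In both, the heterozygote and f5-j/j plants were the high genotypes.

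Loci on the sucrose side went both ways. A transcript of another sucrose synthase locus, LOC_Os06g09450.8, had an authors' mean of 0.01 in f5-i/j plants and 12.6 in f5-j/j plants, the opposite direction to LOC_Os03g28330.5 in the same comparison. Its coding length was 2412 bases, against 1704 bases for the member transcript. A transcript described as trehalose 6-phosphate synthase/phosphatase (LOC_Os02g54820.3) had 9.30 in f5-i/j plants, 0.01 in f5-i/i plants and 4.98 in f5-j/j plants.

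Loci counted under glycolysis by their descriptions were 3 higher and 4 lower for f5-i/j plants against f5-i/i plants. They were 1 higher and 4 lower for f5-i/j plants against f5-j/j plants, and 4 higher and 3 lower for f5-i/i plants against f5-j/j plants. Over all listed loci with a single direction, 54.2%, 45.6% and 45.3% were higher, in the same order of comparisons. The 3 higher in the first comparison were the aldolase, the NADP-dependent dehydrogenase of the Calvin cycle type and an E2 subunit of pyruvate dehydrogenase. The 4 lower were both enolase loci, a phosphofructokinase and the glyceraldehyde 3-phosphate dehydrogenase LOC_Os04g40950. A second enolase, LOC_Os03g14450.2, was at 0.01 in f5-i/j plants, with an authors' mean of 3.55 in f5-i/i plants and 15.0 in f5-j/j plants. This transcript and LOC_Os10g08550.5 were thus both lowest in the heterozygote. Phosphoglycerate mutase, which acts just before enolase (LOC_Os05g40420.2), had 8.89 in f5-i/j plants, 12.3 in f5-i/i plants and 57.0 in f5-j/j plants. The heterozygote was 6.41-fold lower than f5-j/j plants for this enzyme and was not listed against f5-i/i plants.

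The remaining loci counted under glycolysis showed no common direction. A phosphofructokinase, which commits sugar to glycolysis (LOC_Os08g43580.2), had an authors' mean of 6.84 in f5-i/i plants and 0.01 in both other genotypes. The coding length of this phosphofructokinase model was only 288 bases. The glyceraldehyde 3-phosphate dehydrogenase LOC_Os04g40950.3 was at 0.01 in f5-i/j plants and 3.47 in f5-i/i plants. A second aldolase locus (LOC_Os09g25770.1) had 3.54 in f5-i/i plants and 0.01 in f5-j/j plants. The E2 subunit of pyruvate dehydrogenase, which links glycolysis to the tricarboxylic acid cycle, was listed with 2 loci in opposite directions. LOC_Os06g01630.1 had 8.62 in f5-i/j plants and 0.30 in f5-i/i plants, and LOC_Os06g30460.3 had 0.01 in f5-i/j plants and 5.61 in f5-j/j plants. An alcohol dehydrogenase, which ends the fermentation of pyruvate to ethanol (LOC_Os11g10480.4), had 28.8 in f5-i/i plants and 162 in f5-j/j plants, a 5.65-fold difference.

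Beside malate dehydrogenase, 2 loci of the malate and tricarboxylic acid step were listed. A decarboxylating malate dehydrogenase, or malic enzyme, which turns malate into pyruvate (LOC_Os10g35960.2), had an authors' mean of 3.69 in f5-i/j plants, 5.74 in f5-i/i plants and 0.01 in f5-j/j plants. Its order of genotypes is that of malate dehydrogenase LOC_Os10g33800.3. An isocitrate dehydrogenase (LOC_Os07g05470.2) had 6.63 in f5-i/j plants and 0.01 in both homozygotes, the order of sucrose synthase LOC_Os03g28330.5. All 3 loci of this step listed for f5-i/j plants against f5-j/j plants were higher, each with f5-j/j plants at the lowest value. In this comparison, 45.6% of all listed loci with a single direction were higher. A mean of 0.01 for either f5-i/j or f5-j/j plants was held by 203 (58.0%) of its 350 listed transcripts. Malate dehydrogenase was itself chosen from these lists.

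The transcripts most like the starch enzymes were sought among 159 other transcripts above the lowest value in all genotypes, by the Euclidean distance between log2 means centred on their average over the 3 genotypes. Nearest to LOC_Os07g22930.4 were an H+-transporting ATPase (LOC_Os04g56160.3, distance 0.13) and a member of solute carrier family 35 (LOC_Os07g33954.1, distance 0.14). The transporter had an authors' mean of 261 in f5-i/j plants, 71.1 in f5-i/i plants and 307 in f5-j/j plants. The next were 2 transcripts of LOC_Os03g27019 with identical means, LOC_Os03g27019.1 and LOC_Os03g27019.2 (distance 0.20), and an aspartate-semialdehyde dehydrogenase (LOC_Os03g63370.1, distance 0.21).

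Nearest to LOC_Os07g22930.2 were a transcript described as ubiquitin C (LOC_Os04g53620.1, distance 0.13), another locus of solute carrier family 35 (LOC_Os07g33910.2, distance 0.14) and LOC_Os04g41560.2 (distance 0.15). The NADP-dependent dehydrogenase LOC_Os04g38600.3 followed at 0.17 and a geranylgeranyl reductase (LOC_Os02g51080.1), which serves chlorophyll synthesis, at 0.23. Nearest to beta-amylase were LOC_Os05g01530.1, without a description (distance 0.20), and a hydroxymethylglutaryl-CoA reductase of isoprenoid synthesis (LOC_Os08g40180.1, distance 0.27). The reductase had 89.2 in f5-i/j plants, 13.2 in f5-i/i plants and 82.6 in f5-j/j plants. The next were LOC_Os02g49680.1, LOC_Os01g50910.1 and the short-chain dehydrogenase LOC_Os11g16410.3, at 0.36, 0.39 and 0.41. With 3 means per transcript, such likeness is a description only.

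The tissue named in the labels could not be checked fully, because the tables hold only listed transcripts. Of 12 MADS-box loci of floral organs, 1 was listed, and of 7 tapetum and anther loci, 2 were listed. The deposited descriptions name no anther role for either. The MADS-box transcript LOC_Os01g66030.2 had an authors' mean of 31.3 in f5-i/i plants and 5.98 in f5-j/j plants. The second anther locus, LOC_Os11g37280.1, had 34.05 in f5-i/j plants, 33.8 in f5-i/i plants and 0.413 in f5-j/j plants. Its low genotype is that of phosphoglycerate kinase and malate dehydrogenase. The other listed anther locus, LOC_Os08g38810.1, was at 0.01 in f5-i/i plants, where both enzymes had their highest mean. The 2 anther loci thus share no order of genotypes, and the part of anther tissue in the enzyme values was not tested.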

How the data were processed

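Spikelet polyA RNA of 9 samples, 3 per genotype, was sequenced after random-primed cDNA synthesis on an Illumina HiSeq platform, per the labels' protocols. The submitters' processing notes name RSEM, BWA and Bowtie, with no version or role. The genome build, the normalization and the program for the probabilities were not given in the sources used here. Per the file headers, deposited means are signal values that the authors averaged within each genotype, and their unit is not stated. The deposited log2 ratio is that of the 2 means, per the file headers and by recomputation. The deposited probability is a score of differential expression, at least 0.8 by the authors' filter, and not a p-value. Genotypes were assigned to columns from the table names, and means that recur between tables differed by 0.

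Values were read and compared with Python 3.11.15, pandas 2.3.3 and numpy 2.4.6, and drawn with matplotlib 3.10.9; the counting code was tested on simulated data. The members, the lists, the words and the alternatives were chosen with earlier results of these data known. All 10 transcripts of the 7 loci are named. Per pathway step, the locus with the largest ratio above the lowest value was to be named; the other pathway loci were named after their values were seen. The 5 nearest transcripts were sought for starch synthase and beta-amylase. A description holding several pathway words was counted under the longest. No sample was modelled singly. Alternatives were a probability of at least 0.9, transcripts above the lowest value, an absolute log2 ratio of at least 2, counting by locus, the most abundant transcript of a locus, identical transcripts counted once, the pathway without the 7 loci, and pseudocounts of 0.1 and 1.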

Additional observations from a re-analysis of the deposited data

How the results depend on the processing

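Leaving out each replicate was not run, and no paired analysis was possible because the authors' deposited tables hold genotype means. The results below are given for f5-i/j plants against f5-i/i plants, f5-i/j plants against f5-j/j plants and f5-i/i plants against f5-j/j plants, in this order. With a probability of at least 0.9, member transcripts were 1 higher and 0 lower, 3 higher and 0 lower, and 2 higher and 0 lower. The transcripts of starch synthase, beta-amylase, aldolase and enolase were below that probability. Among transcripts above the lowest value, they were 5 higher and 1 lower, 0 and 1, and 0 and 4. Between the homozygotes, lower members numbered 2 where the log2 ratio was at least 2 in size and 2 by locus. Pathway loci with a probability of at least 0.9 were 2 higher and 1 lower, 3 and 2, and 3 and 0. Among transcripts above the lowest value, lower pathway loci numbered 1 and 2 in the first pair of comparisons, and higher ones 0 for f5-i/j plants against f5-j/j plants and 1 between the homozygotes. Without the 7 loci, higher pathway loci numbered 6, 2 and 5. Leaving out 1 of the identical starch synthase transcripts, chosen after seeing the data, moved no count by over 1.5 times. The log2 ratio of the starch synthase sums for f5-i/j plants over f5-j/j plants, 0.03 over all 3 transcripts, changed sign to -0.34 with the most abundant transcript only and to -0.10 with the identical transcripts counted once, the second alternative chosen after seeing the data. The other 11 ratios of sums with the most abundant transcript, and the other 2 with identical transcripts counted once, kept their direction. With the most abundant transcript, only the ratios of starch synthase, and of enolase between the homozygotes, came from sums of several transcripts. The remaining ratios rest on a single transcript and could not change. With pseudocounts of 0.1 and 1, the 11 log2 ratios of members above the lowest value in both genotypes stayed within 1.5 times. Their direction could not change, because the same constant is added to both means. Members at the lowest value in either genotype were not among these ratios.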
